A study of Mus musculus with 8 samples.

Results

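Claudins, occludin, a junctional adhesion molecule and a scaffold protein of the tight junction were followed as 10 genes (Cldn1, Cldn3, Cldn4, Cldn7, Cldn8, Cldn12, Cldn23, Ocln, Tjp1 and F11r) on 8 microarrays of sorted mouse skin tumour cells. The genes were taken from a list by name, and their probe sets were those that the platform annotation assigns to them alone, 13 of 45141. All 10 genes passed the filter on low values and were among the 13939 genes tested. The study raised or removed the orphan nuclear receptor NR2F2 (COUP-TFII), which acts as a transcription factor. The groups were papilloma overexpressing NR2F2 (gain of function, GOF), its control papilloma labelled wild type for NR2F2, carcinoma lacking the gene (loss of function, LOF; K5CreER with both alleles as NR2F2fl/fl), and its Cre-negative control carcinoma, each with 2 arrays. Skin papillomas are benign growths, carcinomas invasive ones. In K5CreER animals an inducible Cre is driven from the keratin 5 promoter, which is active in basal keratinocytes. Cell lineages in which that promoter was not active when Cre was induced would keep the gene. The labels used here do not name the driver of the overexpression, the age of the mice or the treatment that gave the tumours, nor whether replicate arrays stem from different mice. The p-values therefore measure the spread between these arrays, which may be technical in part. In the main fit each gene has 1 estimate of that spread from all 8 arrays. A gene's SE is thus the same in papilloma and carcinoma. Cells were sorted on Epcam, a surface protein of epithelial cells.

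Tight junctions seal the space between neighbouring epithelial cells. Claudins are multi-pass membrane proteins that pair across the gap between cells and set which ions and solutes pass. Occludin and junctional adhesion molecules sit in the same strands, and ZO proteins tie them to actin from the inside. In skin the seal lies in the granular layer, and mice without claudin-1 lose water through the epidermis and die soon after birth. Epcam protein, the sorting antigen here, is known to bind and stabilise claudin-7 and claudin-1.

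The promoter windows of 4 of these genes are shown because the neighbouring genes Cldn3 and Cldn4 on chromosome 5, and Cldn7 and Ocln elsewhere, are compared below in the carcinoma arrays. They are RefSeq sequences of mouse build GRCm38.p6, from 250 bases before to 50 bases after an annotated start. They are written 5′ to 3′ on the gene's strand. Capitals mark AGGTCA or its reverse complement TGACCT, the hexamer that nuclear receptors such as COUP-TFII bind as repeats, and CAGGTG or its reverse complement CACCTG, the E-box known to be bound by Snail repressors. No marked match overlaps another.
Cldn3 (chr5:134985964-134986263, + strand): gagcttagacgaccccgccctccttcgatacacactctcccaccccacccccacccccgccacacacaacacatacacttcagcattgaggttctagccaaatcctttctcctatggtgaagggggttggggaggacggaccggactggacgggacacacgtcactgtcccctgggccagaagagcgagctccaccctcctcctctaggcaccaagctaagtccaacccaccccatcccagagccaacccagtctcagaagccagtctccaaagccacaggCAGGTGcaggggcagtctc
Cldn4 (chr5:134946885-134947184, - strand): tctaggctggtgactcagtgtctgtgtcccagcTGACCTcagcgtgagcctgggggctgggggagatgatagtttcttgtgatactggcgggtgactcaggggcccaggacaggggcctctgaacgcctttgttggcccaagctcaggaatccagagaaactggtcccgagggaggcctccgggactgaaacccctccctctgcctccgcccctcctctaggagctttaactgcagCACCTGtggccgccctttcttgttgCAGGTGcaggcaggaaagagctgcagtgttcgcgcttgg
Cldn7 (chr11:69965171-69965470, + strand): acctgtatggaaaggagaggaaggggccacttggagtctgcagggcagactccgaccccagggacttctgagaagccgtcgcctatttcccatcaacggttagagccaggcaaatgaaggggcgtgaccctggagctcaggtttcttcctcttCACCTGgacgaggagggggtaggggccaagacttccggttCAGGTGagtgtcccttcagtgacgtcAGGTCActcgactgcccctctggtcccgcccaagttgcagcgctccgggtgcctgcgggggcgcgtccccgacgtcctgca
Ocln, first window (chr13:100552669-100552968, - strand): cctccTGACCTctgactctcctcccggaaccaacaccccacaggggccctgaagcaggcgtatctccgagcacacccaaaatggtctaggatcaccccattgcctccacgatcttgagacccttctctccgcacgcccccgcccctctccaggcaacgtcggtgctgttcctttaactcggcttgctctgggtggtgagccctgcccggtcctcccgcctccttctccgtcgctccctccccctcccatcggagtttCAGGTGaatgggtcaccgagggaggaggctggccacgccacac
Ocln, second window (chr13:100552449-100552748, - strand): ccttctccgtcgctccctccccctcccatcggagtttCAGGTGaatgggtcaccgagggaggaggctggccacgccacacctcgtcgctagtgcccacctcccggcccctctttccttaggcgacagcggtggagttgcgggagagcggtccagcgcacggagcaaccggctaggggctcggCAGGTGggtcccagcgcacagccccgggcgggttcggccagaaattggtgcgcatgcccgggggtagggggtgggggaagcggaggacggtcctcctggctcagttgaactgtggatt
The Ocln windows overlap, and only the first holds TGACCT. A further Cldn7 window (chr11:69964529-69964828, + strand), not printed, also holds TGACCT. The RefSeq table held 12 windows for 8 of the 10 genes, some of which overlap, and none for Cldn8 and Cldn23. AGGTCA was found on either strand in 4 of the 12 windows, against 16.3% of all 32851 windows in the table. CAGGTG was found in 6 of the 12, against 20.2% of all. The Grainyhead-like motif AACCGGTT was in 0 of the 12 and in 0.146% of all. The windows of Cldn1, Cldn12 and Tjp1 held none of the 3 motifs. These matches describe letters in a window and say nothing of binding.

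In each tumour type Nr2f2 followed its labels. Its log2 value was 11.43 and 11.47 on the GOF arrays against 2.80 and 2.55 on the control papilloma arrays, and 4.77 and 5.0 on the LOF arrays against 7.93 and 8.14 on the control carcinoma arrays. The other 3 Nr2f2 probe sets differed by -0.04 to 0.96 in GOF papilloma, far less than the brightest, and by -3.07 to -0.32 in LOF carcinoma. Values are log2 RMA values as deposited. The papilloma columns had medians of 3.12 to 3.16 and the carcinoma columns of 5.08 to 5.15, so no level was compared between the tumour types. Background was set per array at the brightest of 44 probe sets that target no mouse transcript, 3.09 to 3.33 in papilloma and 4.95 to 5.01 in carcinoma. Control probe sets of graded base composition ranged from 2.26 to 5.65 on the papilloma arrays and from 2.87 to 7.34 on the carcinoma arrays, so for probes rich in G and C this background is a rough mark. The sorting antigen Epcam stood at 11.51 and 11.44 on the LOF arrays and 11.79 and 11.36 on the control carcinoma arrays. In papilloma it was lower, at 9.0 and 8.68 on the GOF arrays against 10.17 and 10.57 on the control arrays, a log2 fold change of -1.53 (SE 0.22, adjusted p by limma = 0.0372). That Epcam call ended with the replicate block (adjusted p = 0.0982), without either GOF array (0.189 and 0.227), without either control papilloma array (0.0566 and 0.140), without either LOF array (0.0671), on the papilloma arrays alone (0.0535) and with quantile normalization of all 8 arrays (0.0512).

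In carcinoma lacking Nr2f2, Cldn1, Cldn3, Cldn7, Cldn23, Ocln, Tjp1 and F11r had lower values on both LOF arrays than on either control array, while Cldn4 and Cldn8 overlapped and Cldn12 was slightly higher. The largest differences, in Cldn7, Cldn3, Cldn1 and Ocln, lay between 3.22-fold and 3.63-fold. None of the 10 genes passed the threshold of 0.05 after adjustment over all genes. At an unadjusted p under 0.05, 6 of the 10 were lower and 0 higher, against 5.44% and 8.34% of all genes. Their median log2 fold change was -1.07, beside 0.01 over all genes tested.

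**Figure D1:**
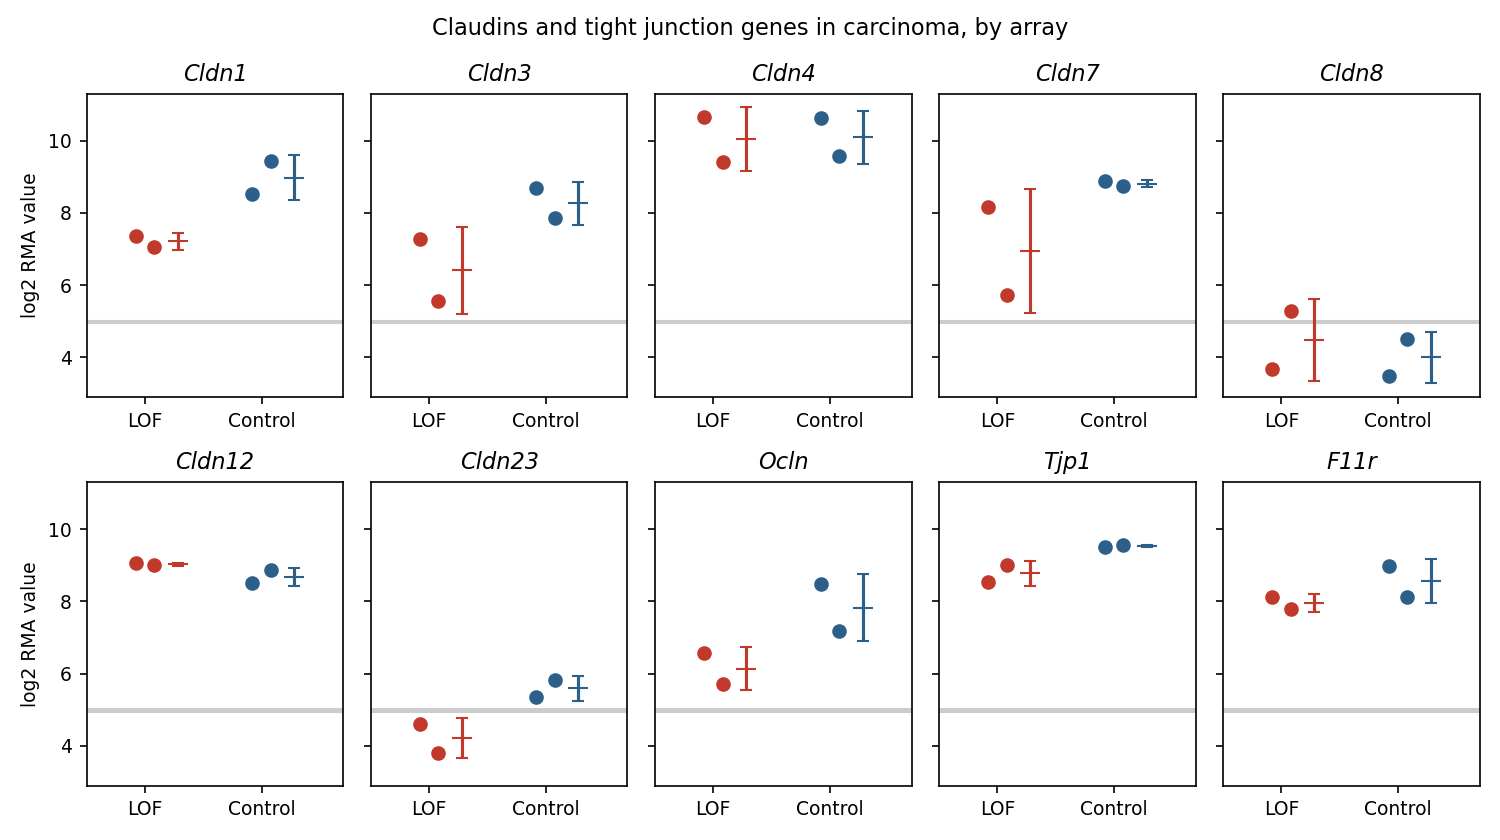
Log2 RMA values (vertical axis) of the 10 genes on each carcinoma array, LOF at left in red and control at right in blue; points are arrays, bars the mean ± SD (n = 2), and the grey band the range of background on these arrays. Cldn1, Cldn3, Cldn7, Cldn23 and Ocln are lower on both LOF arrays, with the widest gap in Cldn1. Cldn3 and Cldn7 spread widely between the LOF arrays and Ocln between the control arrays, and Cldn4 overlaps.

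Cldn1 encodes the claudin on which the epidermal seal depends. It had 7.37 and 7.05 on the LOF arrays against 8.53 and 9.43 on the control carcinoma arrays. The groups were 1.17 apart at their nearest arrays, the widest gap among the 10 genes in this comparison. The log2 fold change was -1.77 (SE 0.38, unadjusted p = 0.00259, adjusted p by limma = 0.149), or 3.41-fold lower. A second Cldn1 probe set had 5.39 and 4.64 on the LOF arrays against 6.77 and 7.82 on the controls, a log2 fold change of -2.28.

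Cldn3 and Cldn4, neighbours on chromosome 5, encode claudins that both serve as receptors of the Clostridium perfringens enterotoxin, and their values differed in pattern. Cldn3 had 7.27 and 5.56 on the LOF arrays against 8.68 and 7.85 on the control carcinoma arrays, with no overlap. Its log2 fold change was -1.85 (SE 0.55, adjusted p by limma = 0.235), and the other Cldn3 probe set gave -1.87. Both LOF arrays were below both controls, but the LOF arrays were 1.71 apart, and without LOF replicate 2 the difference was -0.99. The probe set used for Cldn3 ends in _x_at, a class that may share probes with other transcripts.

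Cldn4 had 10.67 and 9.42 on the LOF arrays against 10.62 and 9.57 on the control carcinoma arrays. Each group thus held a high and a low array, and the ranges overlapped almost fully. The log2 fold change was -0.05 (SE 0.48, 95% interval -1.20 to 1.10, adjusted p by limma = 0.988), an interval that leaves room for a change of more than 2-fold either way. It was 0.57 without LOF replicate 2 and 0.47 without control carcinoma replicate 1.

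Cldn7, the claudin bound by Epcam, had 8.17 and 5.73 on the LOF arrays against 8.89 and 8.74 on the control carcinoma arrays. Its log2 fold change of -1.86 (SE 0.69, adjusted p by limma = 0.311) rested mainly on LOF replicate 2. Without that array the difference was -0.64, and without LOF replicate 1 it was -3.08. Epcam itself differed by -0.10 (SE 0.22, adjusted p by limma = 0.927) on the same arrays.

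Cldn23, a claudin of differentiated gut epithelium, had 4.61 and 3.81 on the LOF arrays against 5.35 and 5.83 on the control carcinoma arrays. Both LOF values lay below background and both control values above it. The measured log2 fold change was -1.38 (SE 0.29, adjusted p by limma = 0.142). The LOF and control values all lay within the range of the graded control probe sets on the carcinoma arrays (2.87 to 7.34). Against the background used here, a rough mark, Cldn23 was at least 1.53-fold lower. It had the smallest unadjusted p of the 10 genes in this comparison (0.00235).

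Ocln, the gene of occludin, had 6.56 and 5.72 on the LOF arrays against 8.49 and 7.17 on the control carcinoma arrays. Its log2 fold change was -1.69 (SE 0.50, adjusted p by limma = 0.236). The groups did not overlap, with 0.61 between their nearest arrays, and without control carcinoma replicate 1 the difference was -1.03. Tjp1 encodes ZO-1, the scaffold under the strands. It had 8.54 and 9.02 on the LOF arrays against 9.51 and 9.56 on the control arrays, a log2 fold change of -0.76 (SE 0.21, adjusted p by limma = 0.211). F11r encodes the junctional adhesion molecule JAM-A, which leukocytes, platelets and endothelium also carry. It had 8.13 and 7.78 on the LOF arrays against 8.99 and 8.13 on the control arrays, a log2 fold change of -0.61 (SE 0.28, adjusted p by limma = 0.417). The nearest F11r arrays of the groups were 0.0006 apart, and the difference was -0.18 without control carcinoma replicate 1 and -1.04 without control replicate 2.

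Cldn12 and Cldn8 stood apart from the lower genes. Cldn12, a claudin that lacks the tail by which most claudins bind ZO proteins, had 9.05 and 9.0 on the LOF arrays against 8.51 and 8.86 on the control carcinoma arrays. Its groups did not overlap, yet the log2 fold change was small, 0.34 (SE 0.36, 95% interval -0.51 to 1.20, adjusted p by limma = 0.775), and its other probe set gave 0.34 as well. That SE is pooled over papilloma and carcinoma. The Cldn12 SD was 0.03 in LOF, 0.25 in control carcinoma, 0.10 in GOF and 0.83 in control papilloma. Cldn8, known from kidney collecting duct and other tight epithelia, had 3.67 and 5.28 on the LOF arrays against 3.49 and 4.50 on the control arrays. LOF replicate 2 alone was above background, and without it the log2 fold change of 0.48 (SE 0.56, adjusted p by limma = 0.806) was -0.32. It was also below 0, at -0.03, without control carcinoma replicate 1.

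Over all genes, 2 of 13939 passed the adjusted threshold in the LOF comparison (0.0143%), so the count of 0 among the 10 genes lies where the background does. The 6 genes lower at an unadjusted p under 0.05 were Cldn1, Cldn3, Cldn7, Cldn23, Ocln and Tjp1. The count of genes lower at an unadjusted p under 0.05 was 3 without control carcinoma replicate 1, and between 4 and 7 under the other alternatives, an alternative count added after the data had been seen. Log2 fold changes below 0 made up 48.9% of all genes and 8 of the 10. Groups that did not overlap, with LOF lower, made up 19.1% of all genes and 7 of the 10, and with LOF higher 23.8% of all genes and 1 of the 10. Differences of at least 1.5-fold downwards in all 4 array pairs were found in 1.48% of all genes and in 3 of the 10, Cldn1, Cldn23 and Ocln. Counted from the lowest log2 fold change, Cldn7 ranked 50, Cldn3 ranked 53, Cldn1 ranked 61, Ocln ranked 73 and Cldn23 ranked 162 of 13939 genes. The genes were chosen with earlier results of these arrays known, so these shares are descriptions.

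**Figure D2:**
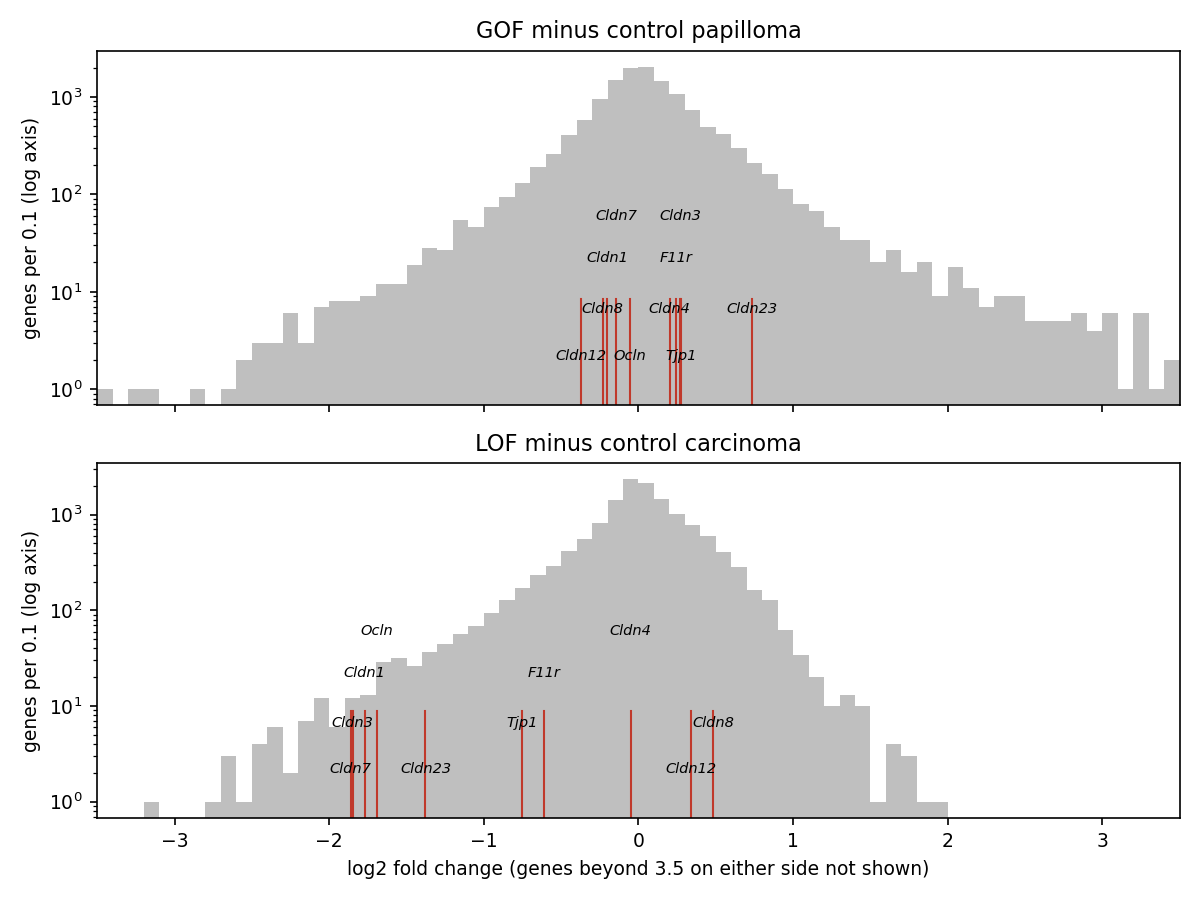
Number of genes (vertical axis, log scale) per 0.1 of log2 fold change (horizontal axis) among 13939 genes, above for GOF minus control papilloma and below for LOF minus control carcinoma; red lines mark the 10 genes, and genes beyond 3.5 on either side are not drawn. Cldn7, Cldn3, Cldn1 and Ocln lie in the low tail of the LOF panel at -1.86 to -1.69, while in the GOF panel the 10 genes lie between -0.37 and 0.73.

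In papilloma overexpressing NR2F2, none of the 10 genes passed the adjusted threshold, and 9 of them had log2 fold changes between -0.37 and 0.27. Cldn23 was the exception in size, with higher values on both GOF arrays. Over all genes 169 of 13939 passed (1.21%), and 9.94% were higher at an unadjusted p under 0.05, as was 1 of the 10. Lower by the same rule were 6.47% of all genes and 0 of the 10.

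**Figure D3:**
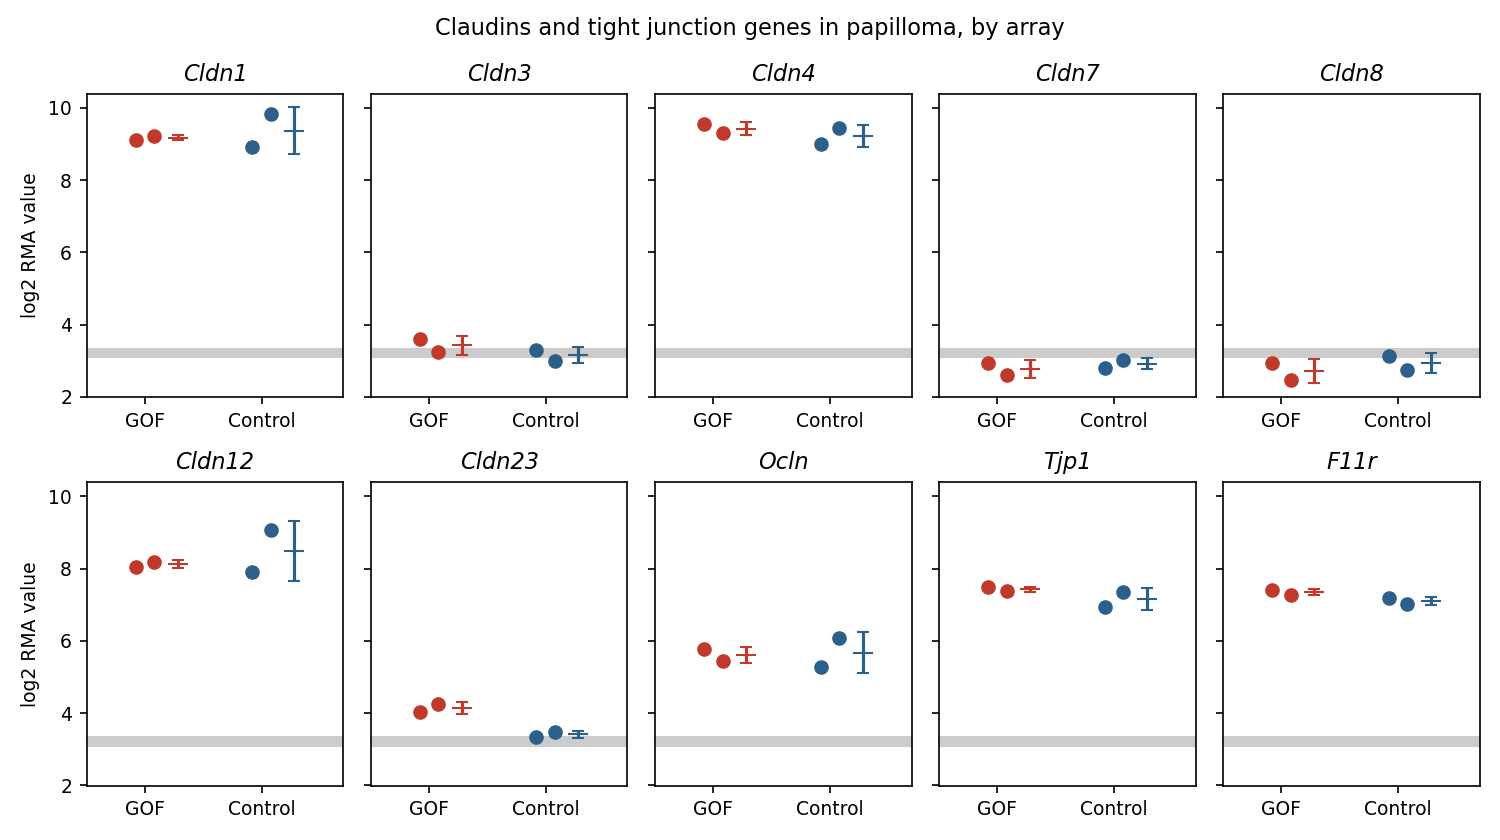
Log2 RMA values (vertical axis) of the 10 genes on each papilloma array, GOF at left in red and control at right in blue; points are arrays, bars the mean ± SD (n = 2), and the grey band the range of background on these arrays. Cldn23 is higher on both GOF arrays, Cldn7 and Cldn8 lie at or under background, and most other genes overlap.

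Cldn23 had 4.03 and 4.27 on the GOF arrays against 3.35 and 3.48 on the control papilloma arrays, all above background but within the range of the graded control probe sets. The log2 fold change was 0.73 (SE 0.29, 95% interval 0.04 to 1.43, unadjusted p = 0.0405, adjusted p by limma = 0.276), or 1.66-fold. Both GOF arrays exceeded both controls, by 0.55 at the nearest. Tjp1 and F11r were also higher on both GOF arrays, by narrow gaps. Tjp1 had 7.48 and 7.38 on the GOF arrays against 6.94 and 7.36 on the controls (log2 fold change 0.27, SE 0.21, adjusted p by limma = 0.602). F11r had 7.40 and 7.28 on the GOF arrays against 7.18 and 7.02 on the controls (0.24, SE 0.28, adjusted p by limma = 0.763). Groups that did not overlap, with GOF higher, made up 27.3% of all genes and 3 of the 10.

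The barrier claudin Cldn1 had 9.12 and 9.22 on the GOF arrays against 8.92 and 9.83 on the control papilloma arrays. The GOF arrays lay between the controls, with a log2 fold change of -0.20 (SE 0.38, 95% interval -1.11 to 0.70). Cldn4 had 9.54 and 9.29 on the GOF arrays against 9.0 and 9.43 on the controls, a log2 fold change of 0.20 (SE 0.48, 95% interval -0.95 to 1.35). Ocln had 5.77 and 5.44 on the GOF arrays against 5.26 and 6.07 on the controls (-0.06, SE 0.50, 95% interval -1.26 to 1.15). For Cldn1, Ocln and Cldn12 the control arrays were farther apart than the GOF arrays. Cldn12 had 8.05 and 8.19 on the GOF arrays against 7.90 and 9.08 on the controls (-0.37, SE 0.36, adjusted p by limma = 0.695).

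The 3 claudins Cldn3, Cldn7 and Cldn8 were near or under background in papilloma. Cldn7 had 2.95 and 2.60 on the GOF arrays against 2.81 and 3.03 on the controls, and Cldn8 had 2.94 and 2.47 against 3.14 and 2.74, not well above background on any papilloma array. Cldn3 had 3.61 and 3.24 on the GOF arrays against 3.31 and 3.01 on the controls, the last below background. These 3 genes passed the filter on low values through the carcinoma arrays, and for them the papilloma comparison carries little information.

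The difference between the GOF and LOF effects was tested for each of the 10 genes as a contrast in the same fit, and none passed after adjustment. For Cldn23 it was 2.11 (SE 0.41, unadjusted p = 0.00152, adjusted p by limma = 0.113). Of all genes, 0.0789% passed this contrast. Cldn23, Tjp1 and F11r were higher on both GOF arrays and lower on both LOF arrays than their controls. The nearest arrays were only 0.015 apart for Tjp1 in GOF and 0.0006 apart for F11r in LOF. Taken singly, the first pattern held for 27.3% of all genes and the second for 19.1%. The share of all genes with both patterns was not computed. For Cldn4 the GOF effect minus the LOF effect was 0.25 (SE 0.68). For Cldn3, Cldn7 and Cldn8, at or near background in papilloma, the contrast adds little to the carcinoma values.

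**Figure D4:**
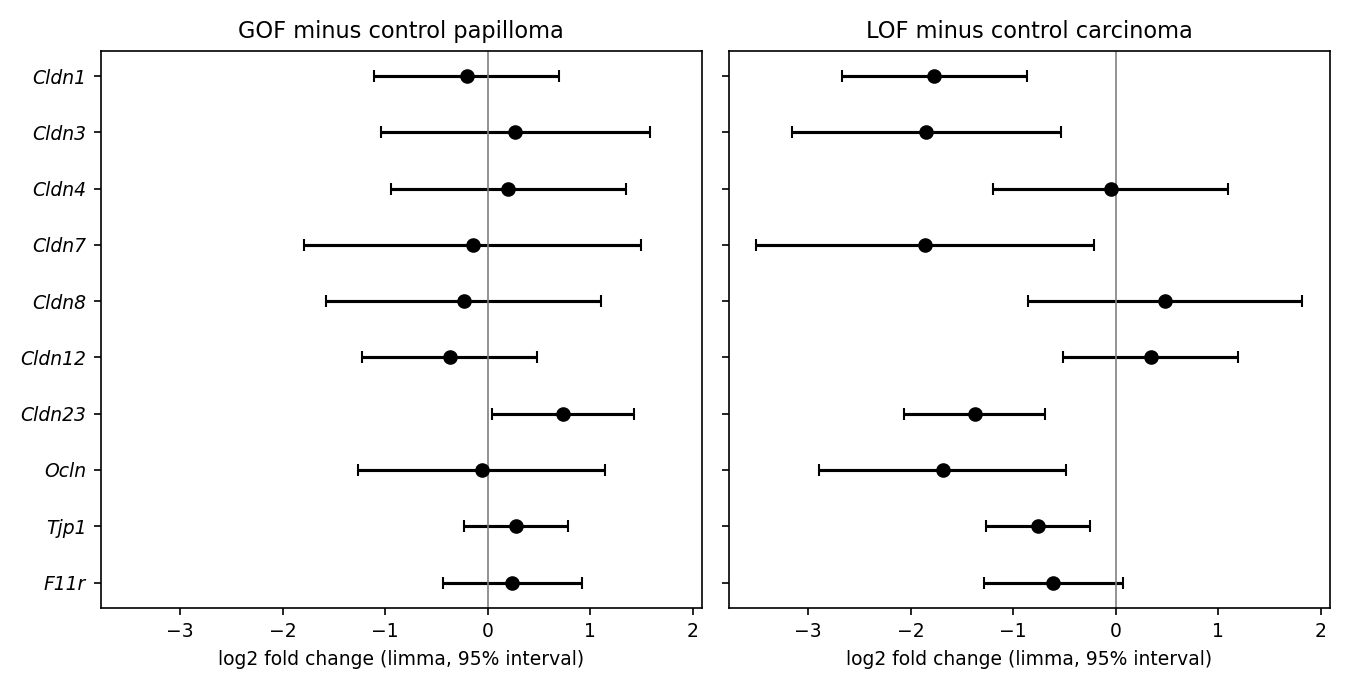
Log2 fold changes (horizontal axis) of the 10 genes with 95% limma intervals, at left GOF minus control papilloma and at right LOF minus control carcinoma. In the LOF panel 6 intervals lie wholly below 0 (Cldn1, Cldn3, Cldn7, Cldn23, Ocln and Tjp1), and in the GOF panel the Cldn23 interval lies above 0; these intervals are not adjusted for the number of genes.

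In LOF carcinoma the medians of the other junction lists lay nearer to 0. Of 8 other claudins tested, none passed in either comparison, and their median log2 fold change in LOF was -0.02. Their mean level was 5.15 and 5.02 on the LOF arrays and 5.04 and 5.09 on the control carcinoma arrays. This is near the background of 4.95 to 5.01, and 2 of the 8 were above background on all 8 arrays. A median near 0 therefore carries little information for these claudins. Of 11 other tight junction membrane genes, 0 passed in LOF, where 8 of 11 log2 fold changes were negative with a median of -0.32. Of 24 scaffold and polarity genes 0 passed in LOF, with a median of -0.11. At an unadjusted p under 0.05, 5 of these 24 were lower (20.8%) and 0 higher, against 5.44% and 8.34% of all genes. LOF was lower without overlap in 9 of the 24 and higher in 3. Among the 11 membrane genes it was lower in 4 and higher in 0. These rules held for 19.1% and 23.8% of all genes. The scaffold gene Cgnl1 encodes paracingulin, which links tight junctions to microtubules. It had 6.19 and 6.02 on the LOF arrays against 6.89 and 6.78 on the controls (-0.73, SE 0.19, adjusted p by limma = 0.195). Of 13 adherens junction genes 0 passed, 11 had negative log2 fold changes and the median was -0.22. LOF was lower without overlap in 7 of the 13 and higher in 0, against 19.1% and 23.8% of all genes. The nectin gene Nectin3 stood at -1.68 (SE 0.81, adjusted p by limma = 0.432) with overlapping groups. Nectin4 stood at -1.08 (SE 0.24, adjusted p by limma = 0.158), lower on both LOF arrays. Nectin4 lay outside the naming rule and was added after its values were seen.

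In GOF papilloma 1 of these other junction genes passed, beside 1.21% of all genes. It was 1 of the 11 membrane genes. Of the 8 other claudins, 24 scaffold and polarity genes and 13 adherens junction genes, 0 passed. Cxadr encodes CAR, the coxsackievirus and adenovirus receptor, an adhesion protein associated with tight junctions. It fell to 7.46 and 7.50 on the GOF arrays, against 8.99 and 9.07 on the control papilloma arrays, a log2 fold change of -1.55 (SE 0.14, adjusted p by limma = 0.0134). That call ended without GOF replicate 1 (0.149), GOF replicate 2 (0.141) or control papilloma replicate 2 (0.0597), and with the replicate block (0.0574). The scaffold gene Magi1 had 4.68 and 5.0 on the GOF arrays against 6.19 and 6.25 on the controls (-1.39, SE 0.31, adjusted p by limma = 0.0959). Another scaffold gene, Mpdz (MUPP1), stood at -0.96 and the nectin gene Nectin3 at -1.0, both at least 1.5-fold lower in all 4 array pairs and neither past the threshold. In all genes 2.19% were lower by this rule in GOF papilloma.

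The endothelial claudin gene Cldn5 and the endothelial adhesion gene Esam were higher in GOF papilloma without passing. Cldn5 had 3.69 and 4.15 on the GOF arrays against 2.92 and 2.84 on the controls, at least 1.74-fold (adjusted p by limma = 0.0539). Esam had 3.90 and 4.01 on the GOF arrays against 2.88 and 2.83 on the controls, at least 1.78-fold (adjusted p by limma = 0.0545). Endothelial markers stood higher on the same arrays. All 12 tested had positive log2 fold changes and 5 passed, and their mean level was 5.15 and 5.26 on the GOF arrays against 3.54 and 3.40 on the controls. Both genes' GOF values also lay within the range of the graded control probe sets, so these bounds hold for the background used here. The part of endothelial RNA in the Cldn5 and Esam values was not tested. In bulk samples, fewer cells of a type and less RNA per cell cannot be told apart.

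**Figure D5:**
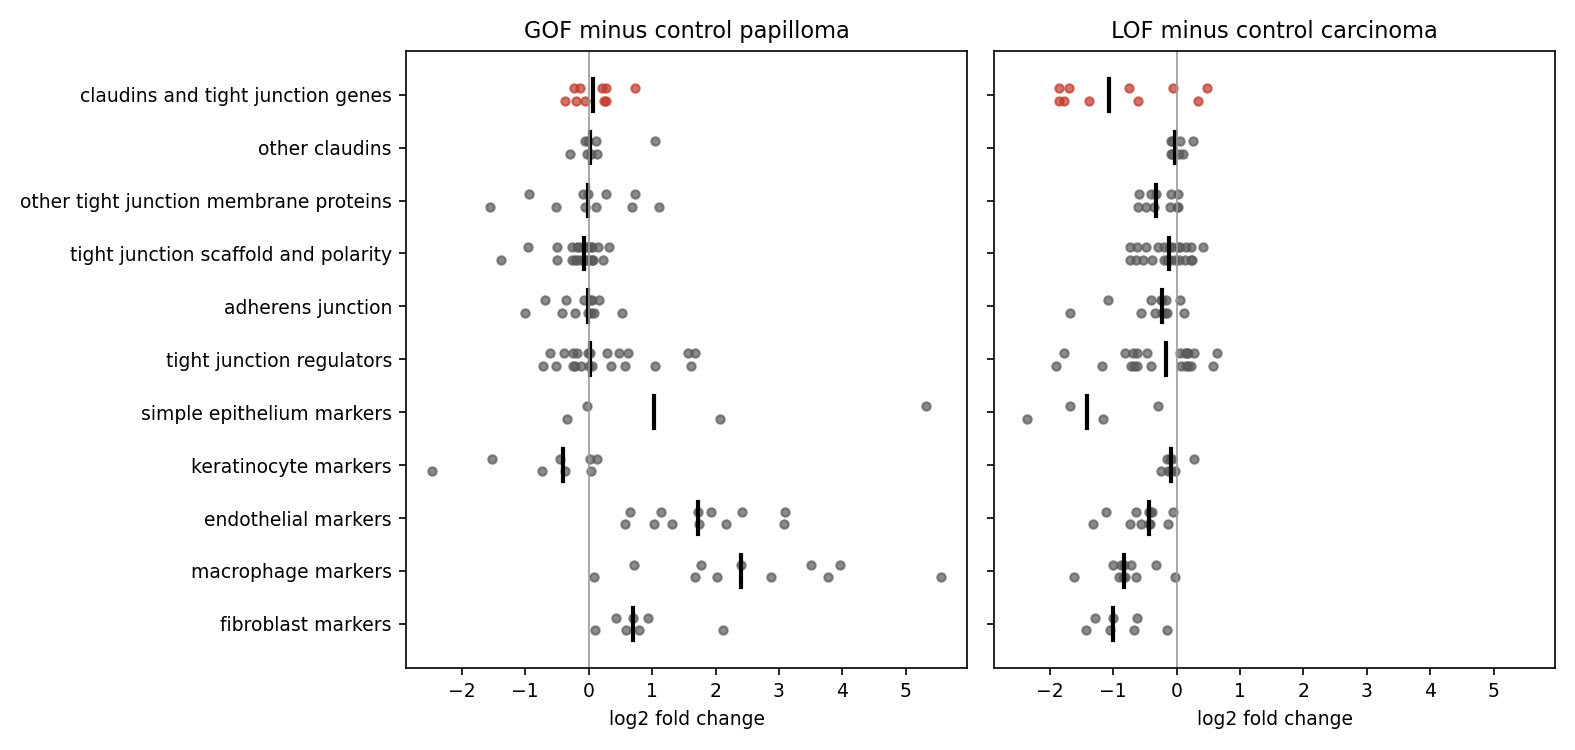
Log2 fold changes (horizontal axis) of single genes in each list, at left GOF minus control papilloma and at right LOF minus control carcinoma; each point is a gene, black bars are list medians, and red marks the claudins and tight junction genes. In LOF their median is -1.07, beside -1.42 for simple-epithelium, -1.01 for fibroblast, -0.84 for macrophage and -0.44 for endothelial markers. It is -0.09 for keratinocyte markers and -0.02 for other claudins, whose mean level lies near background.

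Genes known to regulate tight junctions were 22, of which 0 passed in either comparison. In LOF 6 of the 22 were lower at an unadjusted p under 0.05 (27.3%) and 0 higher, against 5.44% and 8.34% of all genes. Prss8, a membrane protease needed for the epidermal barrier, had 5.41 and 4.82 on the GOF arrays against 3.59 and 3.28 on the control papilloma arrays (1.68, SE 0.67, adjusted p by limma = 0.278). In carcinoma it had 5.18 and 5.32 on the LOF arrays against 6.0 and 8.30 on the controls (-1.90, SE 0.67, adjusted p by limma = 0.289). Prss8, Elf3 and Snai1 were at least 1.5-fold higher in all 4 array pairs in GOF papilloma, as were 3.9% of all genes. Elf3, an epithelial transcription factor, stood at 1.62 in GOF (SE 0.70, adjusted p by limma = 0.313) and overlapped between LOF and control. Snai1, a repressor of claudin and occludin genes, had 4.37 and 4.55 on the LOF arrays against 4.98 and 5.30 on the control carcinoma arrays. Both LOF values and that of control carcinoma replicate 1 were below background, so the carcinoma comparison carries little information for Snai1. Snai2, the other Snail gene of the list, had 7.54 and 8.11 on the LOF arrays against 6.76 and 7.61 on the controls, overlapping and above background (0.64, SE 0.35, adjusted p by limma = 0.487). In papilloma Snai2 had 4.45 and 4.19 on the GOF arrays against 4.76 and 5.33 on the controls (-0.72, SE 0.35, adjusted p by limma = 0.366). Snai2 lay outside the naming rule and was added after its values were seen. In GOF papilloma Snai1 had 4.69 and 4.48 against 3.52 and 2.51 on the controls (1.57, SE 0.32, adjusted p by limma = 0.0775). Zeb2, a repressor of epithelial junction genes, had 4.05 and 4.12 on the LOF arrays, below background, against 5.53 and 6.18 on the control carcinoma arrays. It was at least 1.83-fold lower (adjusted p by limma = 0.312). The Zeb2 values lay within the range of the graded control probe sets, so this bound holds for the background used here.

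Markers of cell types were set beside the carcinoma values. The mean level of 8 keratinocyte markers was 10.98 and 11.21 on the LOF arrays and 11.22 and 11.11 on the control carcinoma arrays, with a median log2 fold change of -0.09. The 4 simple-epithelium keratins Krt7, Krt8, Krt18 and Krt19 had a mean of 7.87 and 7.09 on the LOF arrays against 8.94 and 8.77 on the controls. The order of this mean over the 4 arrays was that of Cldn7, but that of the single keratins was not. Krt7 and Krt19 were highest on control carcinoma replicate 2, and Krt8 and Krt18 overlapped between the groups. The median log2 fold change of the 4 keratins was -1.42, below the -1.07 of the claudins and tight junction genes. Differentiated keratinocyte markers (10 genes) had means of 6.83 and 6.93 on the LOF arrays against 6.35 and 7.50 on the controls. Control carcinoma replicate 2 stood apart in stromal markers. The mean of 11 macrophage markers was 5.11 and 5.47 on the LOF arrays against 5.24 and 6.90 on the controls, that of 7 fibroblast markers 6.86 and 7.46 against 7.27 and 8.83, and that of 12 endothelial markers 5.04 and 5.18 against 5.25 and 6.07. All 11 macrophage, 7 of 7 fibroblast and 12 of 12 endothelial markers had negative log2 fold changes, with medians of -0.84, -1.01 and -0.44, and none passed. None of 6 T cell markers was above background on all 8 arrays. Their part in the claudin values was not tested.

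In papilloma the keratinocyte markers had means of 9.63 and 9.50 on the GOF arrays against 10.25 and 10.23 on the controls. Of the 8, 5 had negative log2 fold changes, and 2 passed as lower, Krt15 (-2.47) and the sorting antigen Epcam (-1.53). Over all genes 63 of 13939 passed as lower. The other 3 markers, Krt5 (0.03), Krt14 (0.01) and Perp (0.13), had small positive log2 fold changes. The 11 macrophage markers had means of 5.31 and 6.25 on the GOF arrays against 3.25 and 3.16 on the controls. The 10 differentiation markers had means of 8.76 and 9.21 on the GOF arrays against 8.06 and 8.34 on the controls. These means were higher on the same arrays as Cldn23, but the markers were not uniform. Of the 10, 8 had positive log2 fold changes, with a list median of 0.48 and the largest in Lce3a (3.47) and Lor (2.04). The other 2, Krt1 (-0.61) and Krt10 (-0.42), were lower on both GOF arrays than on either control. The 7 fibroblast markers had means of 8.62 and 8.91 on the GOF arrays against 8.50 and 7.42 on the controls. The part of these cells in the claudin values was not tested.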

How the data were processed

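The 8 Affymetrix PM strip arrays for mouse fell into 4 groups, 2 arrays each, taken from the sample titles. Per the labels, the authors computed the deposited log2 values by RMA with the affy package; versions are not given in the sources used here. Of 45141 probe sets, 104 were controls, 28898 had 1 gene symbol, 551 several and 15588 none; 28689 found their Entrez number in the RefSeq table of GRCm38.p6. Probe sets with at least 2 of 8 arrays above the median of all values (4.23) were kept, and the brightest stood for its gene. This level lies between the medians of papilloma and carcinoma, so a filter within each tumour type was an alternative. It also lies under the carcinoma background of 4.95 to 5.01, so genes at background in carcinoma could pass. The shares and ranks over all genes include such genes.

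Tests used limma 3.58.1 under R 4.3.3 (1 mean per group, 4 residual and 2.67 prior degrees of freedom, Benjamini-Hochberg over all genes, threshold 0.05), after a check on simulated data. An exact permutation test of 2 against 2 arrays cannot go below p = 0.333 (two-sided). The array number limits the precision. Fold changes given as at least use the higher of background and value on each array of the dimmer group.

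Named genes were every one of the 10, and junction or regulator genes past the threshold or at least 1.5-fold apart the same way in all 4 array pairs. The 10 genes and all lists were chosen with earlier results of these data known. Alternatives were the replicate block, each array left out, 2 other filters, probe set choices, scalings, separate fits and the variance prior. Replicate numbers appear only in the sample names; deviations of same-numbered arrays correlated at 0.002 in papilloma and 0.13 in carcinoma over 13939 genes, with 2 pairs each.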

Additional observations from a re-analysis of the deposited data

How the results depend on the processing

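No alternative brought any of the 10 genes past the adjusted threshold in either comparison or in the difference of the effects; the lowest adjusted p was 0.0619, for the Cldn23 difference. The lower values of Cldn1, Cldn3, Cldn7, Cldn23, Ocln, Tjp1 and F11r in LOF carcinoma kept their direction in each alternative that gave a value. The median log2 fold change of the 10 genes was -1.28 to -0.81 in LOF with 1 array left out. In GOF the median was 0.07, over genes that include Cldn3, Cldn7 and Cldn8 at or near background, and 0.20 with the filter within each tumour type, which left out Cldn8. Small differences changed sign. With 1 array left out, GOF log2 fold changes ranged from -0.66 to 0.25 for Cldn1, -0.015 to 0.42 for Cldn4, -0.31 to 0.028 for Cldn7, -0.47 to 0.0043 for Cldn8, -0.96 to 0.22 for Cldn12 and -0.46 to 0.34 for Ocln. In LOF they ranged from -0.68 to 0.57 for Cldn4, -0.32 to 1.29 for Cldn8 and -0.31 to 0.11 for Epcam, and the difference of the effects from -0.37 to 0.88 for Cldn4 and -1.52 to 0.093 for Cldn8. In GOF, Cldn3 was -0.0076 with the mean of probe sets and Cldn12 was 0.034 without _s_at, _x_at and _a_at probe sets. Cxadr in LOF, 0.004 as fitted, was -0.14 without those probe sets and -0.067 with quantile normalization, and ranged from -0.14 to 0.15 with 1 array left out. The count of the 10 genes lower in LOF at an unadjusted p under 0.05 ran from 3 (without control carcinoma replicate 1) to 6 with 1 array left out, and was 7 with the replicate block.

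Counts over all genes moved more. In GOF, 169 became 3 with the replicate block, 108 with quantile normalization of all 8 arrays, 2 without GOF replicate 1, 1 without GOF replicate 2, 75 without control papilloma replicate 1, 13 without control papilloma replicate 2, 61 without either LOF array and 297 without either control carcinoma array. In LOF, 2 became 0 on the carcinoma arrays alone, with the replicate block, when probe sets were averaged and without either GOF or either LOF array, 1 without either control papilloma array, 4 without control carcinoma replicate 2, 122 without control carcinoma replicate 1 and 32 with a trended and robust prior. Among the other junction and regulator genes, the 1 called in GOF became 0 with the replicate block, 3 with separate fits, quantile normalization, median centring or the trended prior, and 0 to 3 with 1 array left out; in LOF it was 0 to 1. The same-numbered arrays share only a number in their names, and whether they belong together is not known. What a call lost under the block means can therefore not be told here. The causes were not tested. Values near background (Cldn3, Cldn7 and Cldn8 in papilloma, Cldn8 in carcinoma) limit what these arrays can show.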

Other observations

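The 5 genes whose values over the 8 arrays lay nearest to those of Cldn23, the gene of the 10 with the smallest p in either comparison, were Gpr137b, Mxd1, S100a13, Wipf1 and Plekho2. Nearness was the Euclidean distance over 8 arrays after each gene was centred on its mean within each tumour type, and ran from 0.46 to 0.66. S100a13, a calcium-binding protein gene, had a log2 fold change of 1.24 (SE 0.21, adjusted p by limma = 0.0522) in GOF papilloma and of -1.28 (SE 0.21, adjusted p by limma = 0.122) in LOF carcinoma. Mxd1, which encodes the MYC antagonist MAD1, a protein of differentiating cells, stood at 0.58 (adjusted p by limma = 0.421) in GOF and -1.31 (adjusted p by limma = 0.172) in LOF. Wipf1, which encodes a partner of WASP in actin assembly of blood cells, stood at 0.68 in GOF and -1.52 in LOF. None of the 5 passed the threshold in either comparison.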
